A study of Mus musculus with 6 samples.

Results

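The replication-dependent histone genes of the mouse were taken as every gene of the deposited mRNA table whose symbol names a clustered H1, H2A, H2B, H3 or H4 gene (H1f1 to H1f5, H2ac, H2bc, H3c and H4c with a number). The rule found 55 of 22298 genes: 5 for linker histone H1, 14 for H2A, 14 for H2B, 12 for H3 and 10 for H4. Total RNA was sequenced in 6 libraries, all from GC-1spg, an immortalised mouse cell line derived from type B spermatogonia, kept in DMEM with 10% FBS. The si-METTL3 group (3 libraries) was transfected at 60% density with an siRNA against Mettl3, the catalytic subunit of the enzyme that writes N6-methyladenosine on mRNA, and the si-NC group (3 libraries) with a control siRNA. RNA of both groups was collected 48 h later, from cells that carry no other treatment or allele named in the labels. The labels print the same siRNA sequence for both groups and tag the si-NC libraries as untreated although they received a control siRNA. Separate cultures are not named for the replicates, so the p-values cover only the scatter among these 6 samples, which could be technical.

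Replication-dependent histone genes are transcribed mainly in S phase, when new DNA has to be packed into nucleosomes, and they lie in clusters of many near-identical copies. Their mRNAs end in a conserved stem-loop in place of a poly(A) tail, and the stem-loop binding protein SLBP brings in the U7 snRNP that directs the cleavage behind it. H2A, H2B, H3 and H4 form the nucleosome core, and H1 binds the linker DNA between nucleosomes.

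All 55 genes were found by identifier in GENCODE M21 (mouse build GRCm38), where they carry older symbols such as Hist1h4d for H4c4. Of these, 45 lay on chromosome 13 between positions 21715763 and 23934851, and 10 lay on chromosome 3 between positions 96219865 and 96270132. A single exon in every annotated transcript was found for 53 of them. The 10 H4 genes had 10 different coding sequences for 1 and the same protein, the 12 H3 genes encoded 2 proteins, the 14 H2A genes 8, the 14 H2B genes 9 and the 5 H1 genes 5.

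A stem-loop followed the coding end of 37 of the 55 genes in the annotated transcripts, starting 25 to 62 bases behind it. The H4 genes had forms of it that no other family had: 4 forms were found, in 9 of the 10 H4 genes, and none of the 28 stem-loops of the other families matched them. H4c3, H4c4, H4c6 and H4c8 shared 1 form, H4c9 and H4c14 another, H4c2 and H4c11 another, and H4c1 had its own. The form of H2ac19 was shared by 21 genes of H1, H2A, H2B and H3. The sequences below are GENCODE M21 transcript sequence, GRCm38, 5′ to 3′ on the strand of the gene, with the 16 bases of the stem-loop in capitals. They show how the H4 form differs from the common one.
H4c4 (chr13:23581945-23581970, plus strand): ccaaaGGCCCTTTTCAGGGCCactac
H4c1 (chr13:23760795-23760820, minus strand): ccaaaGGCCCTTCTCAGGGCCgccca
H4c2 (chr13:23757361-23757386, plus strand): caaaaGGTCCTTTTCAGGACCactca
H4c9 (chr13:22040961-22040986, minus strand): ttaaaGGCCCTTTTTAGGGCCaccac
H2ac19 (chr3:96239779-96239804, minus strand): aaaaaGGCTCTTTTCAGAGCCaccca
H3c3 (chr13:23745042-23745067, minus strand): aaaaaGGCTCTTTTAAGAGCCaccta
No stem-loop was found in the annotated transcript of H4c12, nor in those of 17 members of the other families. The H4c12 transcript, 312 bases long for a protein of 103 residues, ends with the stop codon and leaves nothing behind it to search. Those of H2bc13, H3c10 and H3c11, among others, end in the same way. For such genes the search could not have found a stem-loop, so its absence here does not show that they lack one.

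Promoters of 50 of the 55 genes, from 250 bases before to 50 bases after the start, were matched by symbol in RefSeq (GRCm38.p6). They were searched on both strands for short motifs, each on its own, so that matches may overlap. GGTCCG, the core of the H4 element that the factor HINFP is known to bind in human H4 genes, stood in 8 of 9 H4 promoters. Among the 41 promoters of the other families it stood in 2, those of H2bc9 and H3c11, and among all 32851 promoters in 8.25%. CCAAT stood in all 41 promoters of the other families that were matched, in 3 of the 9 of H4 and in 37.4% of all promoters. The octamer ATTTGCAT, known from H2B promoters, stood in 7 of 12 H2B and 6 of 14 H2A promoters, in none of the matched H1, H3 and H4 promoters, and in 1.74% of all. AAACACA, known from H1 promoters, stood in 4 of 5 H1 promoters and 7.18% of all, and TATAAA in 30 of the 50 histone promoters and 13.6% of all. The H4 windows below hold GGTCCG in capitals, for 3 H4 genes that were called lower in si-METTL3 libraries and 1, H4c2, that was not.
H4c4 (chr13:23581514-23581543, plus strand): tcaaacaGGTCCGcattggtattataaaag
H4c3 (chr13:23698482-23698511, minus strand): tcaaccaGGTCCGcagaaggcctatttaaa
H4c12 (chr13:21750563-21750592, minus strand): tcatttcGGTCCGcccgccgcagtataaaa
H4c2 (chr13:23756936-23756965, plus strand): tcaaccaGGTCCGataagagcctataataa
H4c1, which was called lower, had no GGTCCG in its window.

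The libraries held 22146057 to 31469144 counts in the si-METTL3 group and 29679593 to 37698956 in the si-NC group. Mettl3 averaged 5.31 ± 0.785 CPM in si-METTL3 libraries and 18.3 ± 0.974 CPM in si-NC libraries (SD, n = 3 each; CPM is a count scaled by edgeR to the library total), with a log2 fold change of -1.79 and an edgeR adjusted p of 0.000579. Of 20 spermatogonial markers, 4 (Sohlh1, Nanos2, Sall4 and Neurog3) had no count in any library and Dazl had 1 count in all. Uchl1 averaged 26.9 FPKM in si-METTL3 libraries and 26.5 FPKM in si-NC libraries, Ccnd2 27.1 and 34.5 FPKM, and Foxo1 3.17 and 2.84 FPKM. The remaining markers averaged at most 0.973 FPKM in either group (Gfra1 in si-METTL3 libraries). Of the list, 8 could be tested by edgeR, with 1 called higher and 0 lower. A sum over 19 lung markers was 91.8 to 130 CPM in si-METTL3 libraries, against 19.3 and 22.1 CPM in si-NC replicates 2 and 1 and 89.0 CPM in si-NC replicate 3. Blood markers (7 in the table) followed the same order, with 12.5 to 19.2 CPM in si-METTL3 libraries, 0.876 and 0.616 in si-NC replicates 2 and 1, and 11.9 in si-NC replicate 3. A list of 14 macrophage and endothelial markers summed to 54.3 to 67.2 CPM in si-METTL3 libraries and to 29.5, 29.0 and 52.4 CPM in the same si-NC order. Sertoli cell markers (14 genes, Fshr at 0 throughout) summed to 598 to 635 CPM in si-METTL3 libraries and 371 to 401 CPM in si-NC libraries. Of these, 3 were called higher and 2 lower by edgeR. All marker sums use plain library totals. The part of such RNA in the results below was not tested, and leaving out si-NC replicate 3 does not test it, since that removes the si-NC library with the most lung and blood RNA. In bulk samples, fewer cells of a type and less RNA per cell cannot be told apart.

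Histone mRNAs were abundant in these libraries. The 55 genes took 0.764, 0.762 and 0.681% of all counts in si-METTL3 replicates 1 to 3 and 0.769, 0.752 and 0.866% in si-NC replicates 1 to 3. The groups overlapped. By deposited FPKM, which is scaled to the length of the gene model, 50 of the 55 had a mean of at least 1 and 35 of at least 100 over the 6 libraries, with a median of 172 FPKM. The 9 members with models over 1500 bases have low FPKM for their counts where the model runs past the processed mRNA, so the order of levels is that of the models and not of molecules. H2ac19 and H2ac18, near-identical copies on chromosome 3, led with means of 847 and 821 FPKM and ranked 58 and 59 of all genes. H4c2 followed with 576 FPKM, H2bc8 with 444 and H4c8 with 398. The lowest were H3c14 with 0.0167 FPKM, H4c14 with 0.337, H2bc21 with 0.643, H2bc1 with 0.813 and H2ac1 with 0.883. H2bc1 and H2ac1 encode TH2B and TH2A, the forms that replace the usual H2B and H2A in developing male germ cells.

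**Figure D1:**
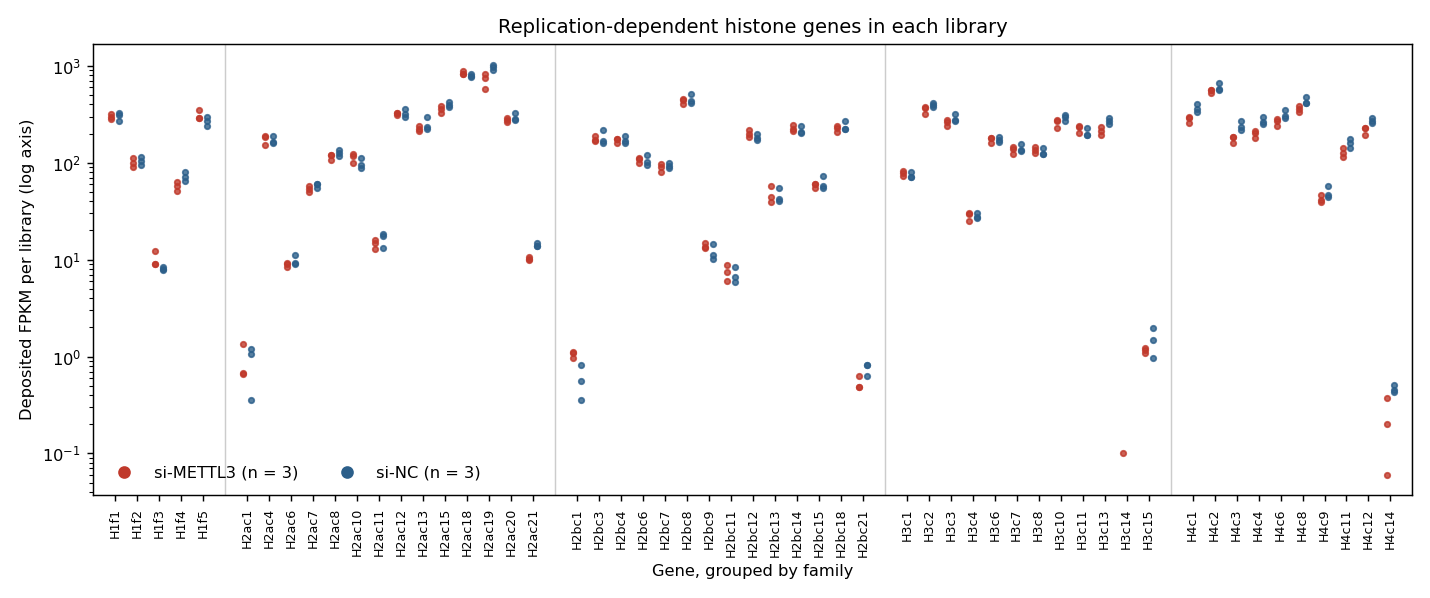
Deposited FPKM (log axis) of each gene in each library, grouped by family, with si-METTL3 libraries left of si-NC libraries. Values of 0, found for H3c14, are not drawn; 35 genes have a mean of at least 100 FPKM, and the 2 groups lie close together for most genes.

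The copies cannot all be told apart by sequence. At least 50% of the 50-base windows of a gene's transcript occurred in another gene for 27 of the 55, and every window did for H2ac18, H2ac19, H2bc18, H3c13 and H3c14. How the authors divided reads between such copies is unknown here, so values of these genes are uncertain. H1f1, H1f5 and H2bc21 shared no window, and H4c4 shared 10.2% of its windows.

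At an edgeR adjusted p under 0.05, 7 of the 54 genes tested were called lower in si-METTL3 libraries and 0 were called higher. H3c14, with 0, 0 and 6 counts in si-METTL3 libraries and 0 in si-NC libraries, did not pass the filter on low counts. Of all 13082 genes tested, 10.2% were called lower and 8.67% higher, so the 7 lower calls are a share near that background, while the 0 higher calls are fewer. At an unadjusted p under 0.05 there were 11 lower and 1 higher. DESeq2 called 10 of 55 lower and 0 higher, against 1445 lower and 1211 higher of 17667 genes. With limma on log2(FPKM + 1), 7 of 50 were lower and 0 higher, against 1242 lower and 1043 higher of 10768 genes. The authors' deposited table lists 10 lower and 0 higher at its adjusted p under 0.05. The share of all genes was not taken for that table or for any unadjusted p, here or below. Those counts therefore cannot set the histone genes apart from other genes. The edgeR calls fell in 3 families: 4 of 10 H4 genes, 2 of 14 H2A genes and 1 of 11 H3 genes tested. No H1 or H2B gene was called. The median log2 fold change over the 54 genes was -0.10, against 0.03 over all genes tested. It was -0.34 for H4, -0.14 for H2A, -0.07 for H3, -0.04 for H1 and -0.03 for H2B. Under a correction for transcript length and GC content, the medians over the 54 genes and all genes were 0.004 and 0.011. The lower median of the 54 genes as a whole was thus not kept there.

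**Figure D2:**
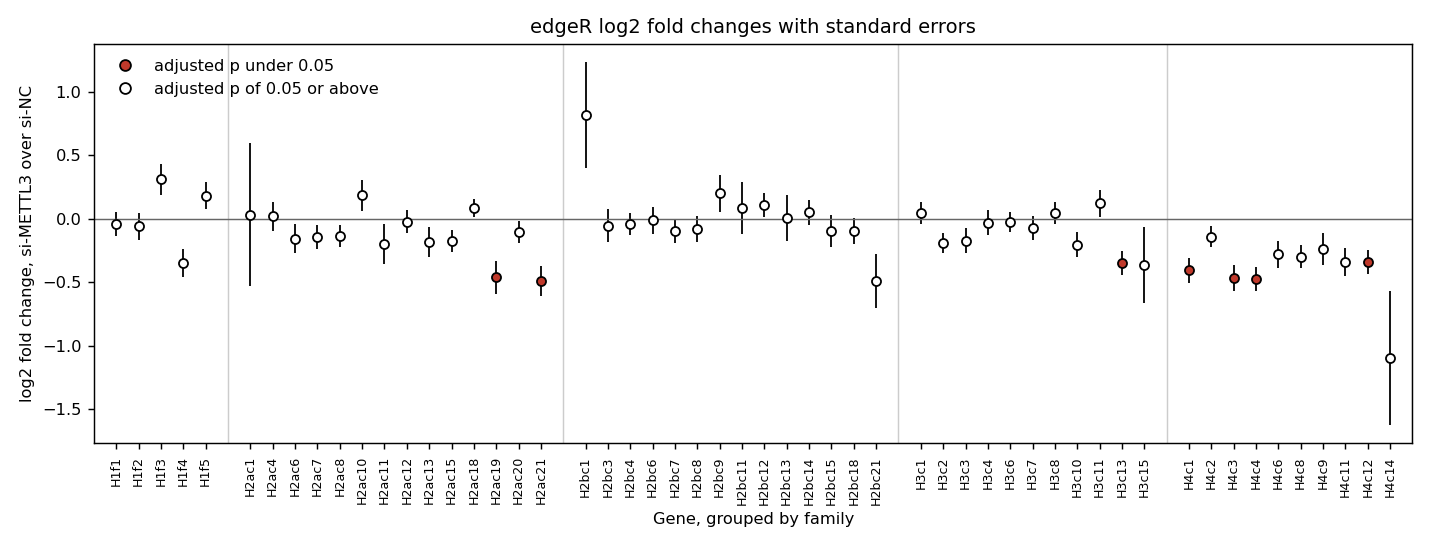
edgeR log2 fold change of the 54 genes tested, si-METTL3 over si-NC, with bars of 1 standard error, by family. Filled points are the 7 genes called lower; all 10 H4 genes lie below 0, from -1.10 to -0.14.

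H4, the histone that pairs with H3 at the centre of the nucleosome, was the family with most calls. H4c4, H4c3, H4c1 and H4c12 fell by 0.48, 0.47, 0.41 and 0.34 on the log2 scale. The log2 fold change was negative for all 10 H4 genes. In CPM, the 3 si-METTL3 libraries lay below the 3 si-NC libraries for 9 of 10, all but H4c9, against 21.3% of all genes tested. H4c4 had 272, 289 and 252 CPM in si-METTL3 libraries, against 366, 343.5 and 422 CPM in si-NC libraries. Its highest si-METTL3 library stayed below its lowest si-NC library, and the log2 fold change came to -0.48 (SE 0.10, adjusted p = 0.0183 by edgeR), or 28.2% lower. H4c3 had 179.5, 183 and 161 CPM in si-METTL3 libraries, against 235, 218 and 272 CPM in si-NC libraries (edgeR log2 fold change -0.47, SE 0.10, adjusted p = 0.0216). H4c1 had 184, 193 and 171 CPM in si-METTL3 libraries, against 236, 219 and 272 CPM in si-NC libraries (edgeR log2 fold change -0.41, SE 0.10, adjusted p = 0.0296). The groups of H4c3 and H4c1 were apart in the same way, and in each of these H4 genes si-NC replicate 3 was the highest library. H4c12 had 85.1, 86.8 and 73.7 CPM in si-METTL3 libraries, against 104, 96.5 and 111 CPM in si-NC libraries (edgeR log2 fold change -0.34, SE 0.09, adjusted p = 0.0419).

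**Figure D3:**
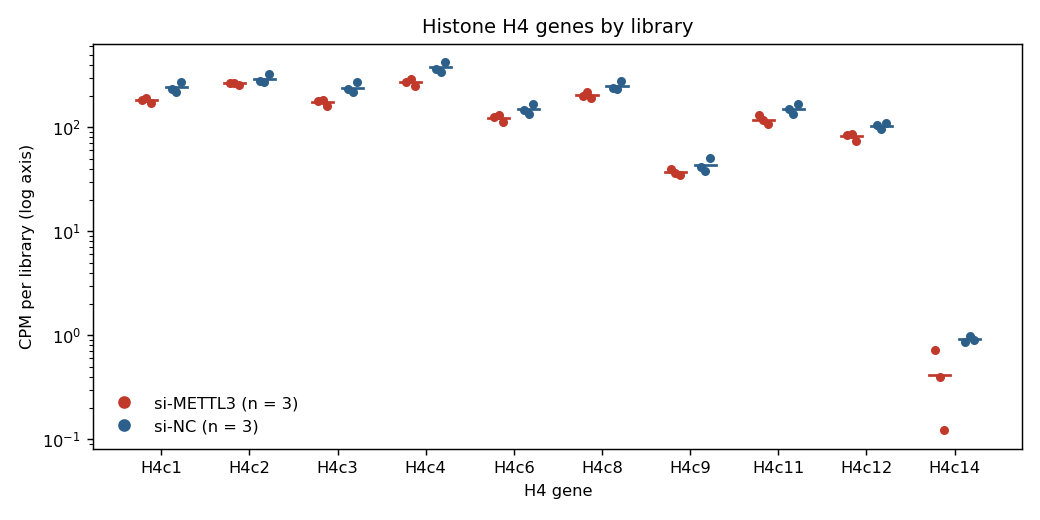
CPM (log axis) of the 10 H4 genes in each library, si-METTL3 left of si-NC, with short lines at the group means. The si-METTL3 points lie below the si-NC points for every H4 gene but H4c9, where they overlap.

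Further H4 genes missed the threshold with values on the same side. H4c8 averaged 359 ± 25.4 FPKM in si-METTL3 libraries and 436 ± 37.8 FPKM in si-NC libraries (SD, n = 3 each; edgeR log2 fold change -0.30, SE 0.09, adjusted p = 0.0621). H4c6 averaged 262 ± 22.4 FPKM in si-METTL3 libraries and 314 ± 32.6 FPKM in si-NC libraries (edgeR log2 fold change -0.28, SE 0.10, adjusted p = 0.103). H4c2, the most abundant H4 gene of the 10, had the smallest difference, with 552 ± 22.2 FPKM in si-METTL3 libraries and 601 ± 50.6 FPKM in si-NC libraries (edgeR log2 fold change -0.14, SE 0.08, adjusted p = 0.256). H4c2 and H4c11 share a stem-loop form, and H4c11 stood at -0.34 on the log2 scale (SE 0.11, adjusted p = 0.0673 by edgeR). H4c14, the H4 gene on chromosome 3, had only 23, 9 and 3 counts in si-METTL3 libraries and 30, 30 and 33 in si-NC libraries (edgeR log2 fold change -1.10, SE 0.53, adjusted p = 0.183).

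The calls changed when single libraries were left out, while the sign of the H4 genes did not. For the 9 H4 genes with groups apart in CPM, leaving out a library could hardly turn the sign. Their constant sign is therefore no separate test. Without si-NC replicate 3, H4c4 and H4c3 were the only histone genes called, at -0.42 and -0.40, and the median over H4 was -0.30; 6.08% of all genes were called lower in that fit. When si-METTL3 replicate 2, si-METTL3 replicate 3 or si-NC replicate 1 was left out, 0 of the 54 were called by edgeR; 11, 7 and 11 were lower and 1, 1 and 0 higher there at an unadjusted p under 0.05. Of all genes tested, 2.72%, 2.63% and 2.91% were called lower in these 3 fits. H2ac19 and H4c4 were the calls without si-METTL3 replicate 1, where 6.13% of all genes were called lower, and 13 genes were called lower when si-NC replicate 2 was left out, where 18.9% of all genes tested were. A correction of each library for transcript length and GC content kept H4c4, H4c3 and H4c1 called, at -0.26, -0.24 and -0.23. H2ac19 and H3c13 made up its 5 lower calls, and it called H1f1, H1f5, H2ac10, H2bc12 and H3c11 higher. In that fit 15.1% of all genes were called lower and 13.8% higher, and the H4 median was -0.20. All H4 genes tested had a negative log2 fold change under each of the 16 processings shown in the plot of family medians. All of these draw on the same libraries and are not independent of one another.

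**Figure D4:**
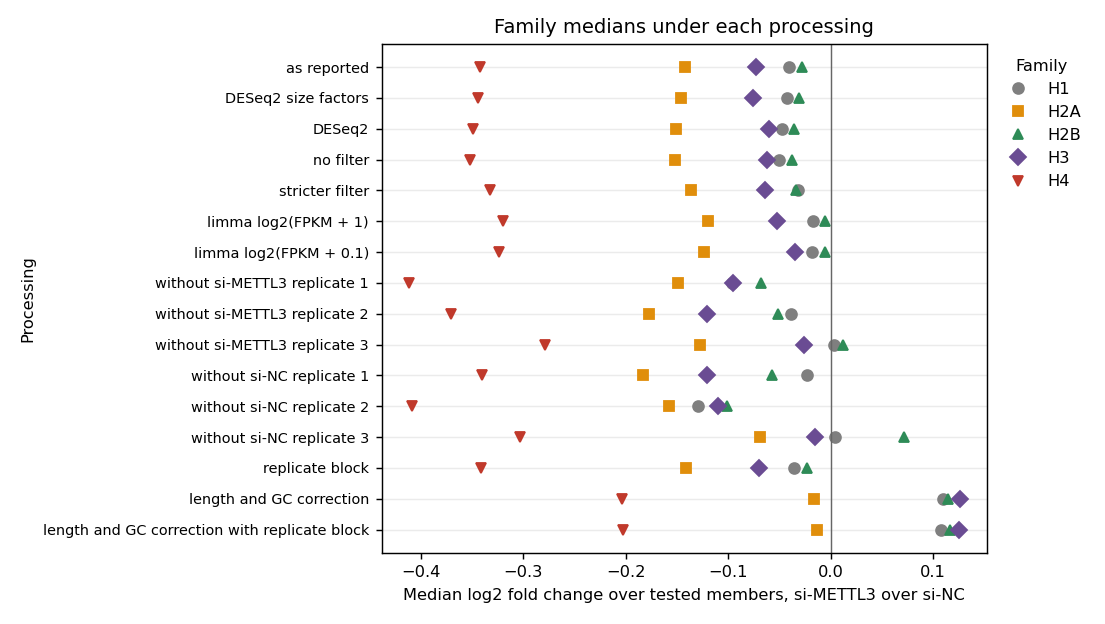
Median log2 fold change over the tested members of each family, si-METTL3 over si-NC, under the reported processing and 15 alternatives. The H4 medians run from -0.41 to -0.20 and those of H2A from -0.18 to -0.01. Those of H1, H2B and H3 lie on both sides of 0.

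H4 also made up less of the histone counts. Its genes took 19.7, 20.3 and 19.96% of the counts of the 55 genes in si-METTL3 libraries, against 23.0, 22.9 and 23.3% in si-NC libraries. This share does not depend on the scaling between libraries, and si-NC replicate 3 did not stand apart in it. The H2B genes took more, with 20.1, 20.6 and 20.5% in si-METTL3 libraries, against 18.5, 18.5 and 19.3% in si-NC libraries. The H1 genes took 12.4 to 13.99% in si-METTL3 libraries and 11.6 to 12.4% in si-NC libraries, with groups that almost touch. The shares of H2A and H3 overlapped between the groups. H4 counts over H2B counts came to 0.984, 0.988 and 0.975 in si-METTL3 libraries, against 1.24, 1.24 and 1.203 in si-NC libraries. Over H3 counts, whose proteins enter the nucleosome together with H4, they came to 1.04, 1.05 and 1.06 in si-METTL3 libraries, against 1.25, 1.18 and 1.25 in si-NC libraries. These ratios show unequal change between families and not which of them changed.

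**Figure D5:**
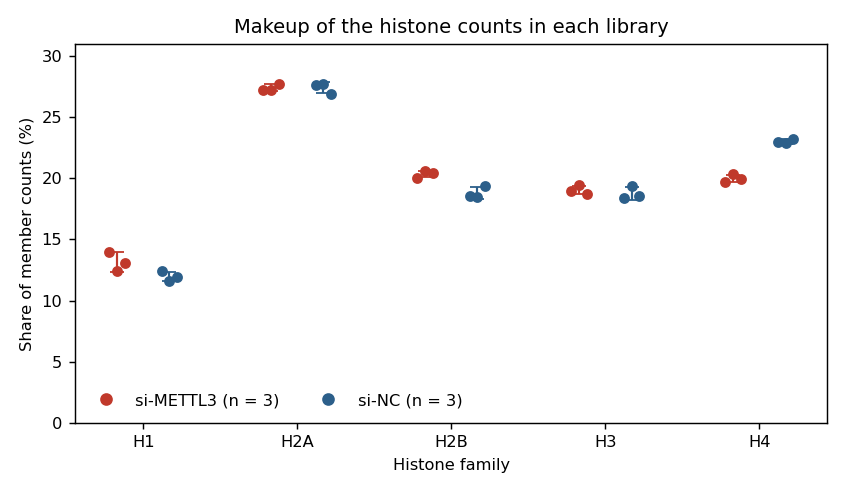
Share (%) of the counts of the 55 genes that each family took in each library, with si-METTL3 left of si-NC and bars of 1 SD around the group means. H4 took 19.7 to 20.3% in si-METTL3 libraries and 22.9 to 23.3% in si-NC libraries.

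Summed over a family, which is less touched by how shared reads were divided within it, the 10 H4 genes reached 1486, 1528 and 1363 CPM in si-METTL3 libraries, against 1799, 1693 and 2068 CPM in si-NC libraries. The log2 ratio of the group means was -0.35. The groups did not overlap for H4, and they overlapped for each other family and for all 55 genes together. The log2 ratio was -0.14 for H2A, -0.12 for H3, -0.03 for H2B and -0.14 for all 55. For H1 the sums averaged 960 ± 83.6 CPM in si-METTL3 libraries and 963 ± 102 CPM in si-NC libraries (SD, n = 3 each). These sums, and the shares and ratios above, leave out 8 further histone cluster genes with older deposited symbols. Among these is Hist1h4n, an H4 gene with 491 CPM in si-METTL3 libraries and 569 CPM in si-NC libraries.

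None of the 5 linker histone genes was called by edgeR, DESeq2 called H1f4 lower, and the genes pointed in different directions. H1f5 averaged 309 ± 34.0 FPKM in si-METTL3 libraries and 269 ± 26.8 FPKM in si-NC libraries (edgeR log2 fold change 0.18, SE 0.11, adjusted p = 0.267). H1f1 averaged 299 ± 17.9 FPKM in si-METTL3 libraries and 304 ± 30.3 FPKM in si-NC libraries (edgeR log2 fold change -0.04, SE 0.10, adjusted p = 0.785). H1f2 averaged 101 ± 11.4 FPKM in si-METTL3 libraries and 104 ± 9.34 FPKM in si-NC libraries. The differences of H1f1 and H1f2 were smaller than the spread between replicates. H1f4 had 146, 135 and 121 CPM in si-METTL3 libraries, against 171, 152 and 191 CPM in si-NC libraries (edgeR log2 fold change -0.35, SE 0.11, adjusted p = 0.0635). H1f3 ran the other way, with 108, 81.6 and 81.9 CPM in si-METTL3 libraries, against 73.0, 69.3 and 76.8 CPM in si-NC libraries (edgeR log2 fold change 0.31, SE 0.12, adjusted p = 0.120). H1f3 and H2bc1 were the only 2 members with all si-METTL3 libraries above the si-NC libraries, which 20.2% of all genes tested were. The annotated H1f3 transcript is 7425 bases long, with the stem-loop 35 bases behind the coding end, so most of its model lies beyond the processed histone mRNA, and the correction for length and GC turned its value to -0.09. That correction put H1f5 at 0.37 and H1f1 at 0.17, both called higher there.

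Among the H2A genes, H2ac19 and H2ac21 fell. H2ac19 had 518, 479 and 375 CPM in si-METTL3 libraries, against 636, 581 and 675 CPM in si-NC libraries (edgeR log2 fold change -0.46, SE 0.13, adjusted p = 0.0440). Its near-identical copy H2ac18 had 579, 589 and 636 CPM in si-METTL3 libraries, against 567, 537 and 599 CPM in si-NC libraries (edgeR log2 fold change 0.08, SE 0.07, adjusted p = 0.433). The si-METTL3 library lowest for H2ac19 was the highest for H2ac18. Their sum, taken after these values were seen, was 1097, 1068 and 1011 CPM in si-METTL3 libraries, against 1203, 1119 and 1274 CPM in si-NC libraries, a log2 ratio of -0.18. The call of H2ac19 alone is therefore uncertain. H2ac21, a gene of low level on chromosome 3, had 5.63, 5.35 and 5.48 CPM in si-METTL3 libraries, against 7.61, 7.33 and 8.20 CPM in si-NC libraries (edgeR log2 fold change -0.49, SE 0.12, adjusted p = 0.0285). Leaving out si-NC replicate 3 ended the calls of H2ac19 and H2ac21, at -0.44 and -0.47. H2ac15, H2ac12 and H2ac20, the next most abundant H2A genes, averaged 357 ± 28.9, 322 ± 11.4 and 278 ± 14.6 FPKM in si-METTL3 libraries, against 398 ± 23.4, 323 ± 32.2 and 295 ± 27.4 FPKM in si-NC libraries. None of these 3 was called. The remaining H2A genes overlapped between the groups, and the family's log2 fold changes ran from -0.49 to 0.18.

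No H2B gene was called by edgeR, and 0 of the 14 had an unadjusted p under 0.05. H2bc8 averaged 435 ± 26.8 FPKM in si-METTL3 libraries and 453 ± 52.2 FPKM in si-NC libraries. H2bc18, H2bc14, H2bc12 and H2bc3 averaged 225 ± 14.7, 228 ± 18.1, 200.01 ± 15.4 and 178 ± 11.03 FPKM in si-METTL3 libraries, against 237 ± 26.3, 217 ± 20.7, 183 ± 14.4 and 182 ± 30.8 FPKM in si-NC libraries. The groups of all 5 overlapped in CPM. H2bc1, the gene of TH2B, stood at 0.81 on the log2 scale (SE 0.42, adjusted p = 0.207 by edgeR) at 0.446 to 0.501 CPM in si-METTL3 libraries and 0.166 to 0.381 CPM in si-NC libraries. H2bc21, also of low level, went the other way, at -0.49 (SE 0.22, adjusted p = 0.150 by edgeR). It had 1.56 to 1.97 CPM in si-METTL3 libraries and 2.02 to 2.64 CPM in si-NC libraries.

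Of the H3 genes, whose 2 proteins are known as H3.1 and H3.2, only H3c13 was called. It had 125, 139 and 115 CPM in si-METTL3 libraries, against 151, 158 and 174 CPM in si-NC libraries (edgeR log2 fold change -0.35, SE 0.10, adjusted p = 0.0445). It encodes the protein shared by 8 of the 12 H3 genes, and all its 50-base windows occur in other genes. Leaving out si-NC replicate 3 ended its call, at -0.31. H3c2, the most abundant, averaged 353 ± 32.2 FPKM in si-METTL3 libraries and 398 ± 18.5 FPKM in si-NC libraries, with groups that did not overlap in CPM (edgeR log2 fold change -0.19, SE 0.08, adjusted p = 0.141). H3c10, H3c3 and H3c11 averaged 257 ± 25.1, 259 ± 19.8 and 226 ± 21.4 FPKM in si-METTL3 libraries, against 292 ± 22.4, 288 ± 29.5 and 205 ± 21.5 FPKM in si-NC libraries, and none was called. H3c11 was the member with the largest positive log2 fold change of its family, 0.12.

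The genes that make and process histone mRNA were compared by the same fit, in which 10.2% of all genes tested were called lower and 8.67% higher. These shares are the background for the counts of each list, and no list is set apart by its count. Of 33 tested genes of histone transcription and 3′ end formation, 5 were called lower and 0 higher by edgeR (median -0.06; 10 lower and 1 higher at an unadjusted p under 0.05, 0 higher by DESeq2 or limma). Cstf2, a cleavage stimulation factor subunit, fell by 0.45 (edgeR adjusted p = 0.0251), and its paralog Cstf2t fell by 0.35. Cpsf4 and Cpsf3, subunits of the cleavage and polyadenylation factor, fell by 0.39 and 0.30; Cpsf3 is the nuclease that cuts histone pre-mRNA. Snrpe, an Sm protein, fell by 0.28. Slbp, the stem-loop binding protein, had 152, 142 and 165 CPM in si-METTL3 libraries, against 156, 157 and 156 CPM in si-NC libraries (edgeR log2 fold change -0.03, SE 0.07, adjusted p = 0.793). Lsm10 and Lsm11, proteins of the U7 snRNP, had -0.21 (SE 0.11) and -0.03 (SE 0.09) and were not called. Npat, the S phase coactivator of histone transcription, varied widely, with 22.2, 43.9 and 56.3 CPM in si-METTL3 libraries and 21.6, 41.1 and 15.1 CPM in si-NC libraries (edgeR adjusted p = 0.320).

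Of 22 tested genes of histone mRNA decay, 1 was called higher and 2 lower (median -0.05), at or below the 8.67% and 10.2% of all genes. The helicase gene Dhx9 averaged 117 ± 9.10 CPM in si-METTL3 libraries and 70.1 ± 20.6 CPM in si-NC libraries (edgeR log2 fold change 0.74, SE 0.20, adjusted p = 0.0399). Lsm1, of the ring that binds the ends of decaying mRNAs, and Exosc10, a nuclease of the nuclear exosome, fell by 0.40 and 0.35. Eri1, the exonuclease that trims the stem-loop end, had 0.13 (SE 0.10) and was not called.

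Among 14 tested histone genes outside the naming rule, mostly replication-independent variants, 2 were called lower and 0 higher by edgeR (median -0.03). At an unadjusted p under 0.05, by DESeq2 or by limma, 0 were higher. The lower calls are near the 10.2% of all genes. H3f3b, which encodes the replacement histone H3.3, averaged 925 ± 51.1 CPM in si-METTL3 libraries and 1166 ± 49.0 CPM in si-NC libraries (edgeR log2 fold change -0.33, SE 0.07, adjusted p = 0.0202). H2ax, whose product is phosphorylated at DNA breaks, fell by 0.35 (edgeR adjusted p = 0.0446). Of 11 testis-specific histone genes in the table, 7 had 0 counts in every library and 1 could be tested, with no call. Of 5 protamine and transition protein genes, which replace histones in sperm, 3 had 0 counts throughout and none could be tested.

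Of 31 histone chaperones and remodellers, 1 was called higher and 3 lower (median 0.02), against 8.67% and 10.2% of all genes. Daxx, the chaperone that deposits H3.3 at repeats, averaged 34.1 ± 1.98 CPM in si-METTL3 libraries and 63.0 ± 8.97 CPM in si-NC libraries (edgeR log2 fold change -0.88, SE 0.12, adjusted p = 0.00511). Asf1b, a chaperone of newly made H3 and H4, fell by 0.32 and the remodeller Ino80 by 0.23, while Srcap, which exchanges H2A.Z, rose by 0.24. The correction for length and GC put Srcap at -0.03.

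Of 51 tested genes of DNA replication and S phase, 2 were called higher and 5 lower (median -0.04), shares near those of all genes for lower calls and below them for higher calls. Ccne1, the cyclin that drives entry into S phase, averaged 18.5 ± 1.45 CPM in si-METTL3 libraries and 10.2 ± 0.883 CPM in si-NC libraries (edgeR log2 fold change 0.86, SE 0.11, adjusted p = 0.00479). Orc6, a subunit of the origin recognition complex, averaged 39.9 ± 1.08 CPM in si-METTL3 libraries and 69.9 ± 2.16 CPM in si-NC libraries (edgeR log2 fold change -0.81, SE 0.07, adjusted p = 0.000966). Gins2, of the replication helicase, and Mcm10, a replication factor, fell by 0.55 and 0.41. Rpa2, which binds single-stranded DNA, fell by 0.38 and the licensing factor Cdt1 by 0.32. Tyms, which makes thymidylate, rose by 0.24. Of the 21 called genes of these lists, only Daxx, Ccne1 and Orc6 held their calls in all 6 fits that left out a library. They were the 3 that stayed called without si-METTL3 replicate 2, si-METTL3 replicate 3 or si-NC replicate 1, while 8 stayed called without si-METTL3 replicate 1, 7 when si-NC replicate 3 was left out and 21 when si-NC replicate 2 was.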

How the data were processed

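Per the file headers, the deposited mRNA table holds counts and FPKM per library, and the authors' own log2 fold changes, p-values and adjusted p-values. The submitters' processing notes name RSEM, StringTie, Bowtie2 and fastp and the mouse build mm9; roles, versions, strand and library selection (poly(A) or depletion) are not given in the sources used here, and histone mRNAs without a poly(A) tail are sensitive to that selection. Every deposited count is a whole number. The deposited FPKM values imply gene lengths proportional to the GENCODE M21 models for 54 of 54 members within 2%, so FPKM of members with long models is understated relative to the processed mRNA. Coordinates are GRCm38 and none was converted.

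The whole table was tested once with edgeR 4.0.16 (R 4.3.3): TMM scaling, filterByExpr, a two-sided quasi-likelihood test of group over all 6 libraries without covariates, and Benjamini-Hochberg adjustment over 13082 genes at 0.05. SE is the log2 fold change over the square root of the F statistic. Alternatives used DESeq2 1.42.0, limma 3.58.1 on log2(FPKM + 1) and log2(FPKM + 0.1), other filters and scaling, a length and GC correction, a replicate block and leaving out each library. The fit was tested on simulated counts. Family sums and shares were described without a test. The members and gene lists were chosen with earlier results of these data known. Genes were named by rule: in each family the 5 of highest FPKM and any called, of each list the called genes, up to 5 each way, and fixed companions; H4c9, H4c11, H4c14 and other members named to spell out a count or a range were chosen after their values were seen. The deposited lncRNA table was not used here.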

Additional observations from a re-analysis of the deposited data

How the results depend on the processing

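Mettl3 kept its call under all 15 alternatives (-1.88 to -1.48). The family sums were recomputed with DESeq2 size factors, as FPKM and without the member of highest count. They were also recomputed with the cluster genes that the naming rule leaves out, and with each library left out. No sum moved beyond its spread, the combined SD of the 2 groups on the log2 scale. The length and GC correction and the replicate block were not applied to the sums. Histone genes called lower (7 as reported) numbered 4 by limma on log2(FPKM + 0.1), 0 with the replicate block (10 lower and 1 higher at an unadjusted p under 0.05) and 0 to 13 with a library left out; 5 were called higher under the length and GC correction and 5 with it and the block, against 0. The labels do not say whether the replicate numbers pair the samples. Deviations from the group means correlated at 0.07, 0.20 and -0.31 between same-numbered libraries, and at -0.40 to 0.34 between differently numbered ones. These values cannot settle the pairing, since with 3 libraries per group the deviations within a group depend on one another. Under the length and GC correction, without and with the block, signs turned for H1f1 (0.17, 0.17), H1f2 (0.11, 0.11), H1f3 (-0.086, -0.086), H2ac12 (0.048, 0.047), H2bc3 (0.12, 0.12), H2bc8 (0.14, 0.14), H2bc18 (0.088, 0.089), H3c3 (0.0070, 0.0074), Eri1 (-0.084, -0.081) and Srcap (-0.029, -0.027). With a library left out, values on both sides of 0 were found for H1f1 (-0.13 to 0.0048), H1f2 (-0.16 to 0.0031), H2ac12 (-0.097 to 0.039), H2bc3 (-0.14 to 0.076), H2bc8 (-0.15 to 0.0016), H2bc14 (-0.014 to 0.11), Slbp (-0.087 to 0.019) and Lsm11 (-0.088 to 0.015). With the block, lower calls were 2 for transcription and 3′ end formation (5 as reported), 0 for decay (2), 1 for variants (2), 1 for chaperones (3) and 3 for S phase (5), and higher calls 0 for chaperones (1) and 1 for S phase (2). The length and GC correction, without and with the block, gave 1 and 1 higher calls for transcription and 3′ end formation, 4 and 4 lower for decay, 3 and 3 higher for variants, and 9 and 7 higher with 9 and 8 lower for S phase; without the block it gave 1 lower for variants and 2 higher for chaperones. DESeq2 size factors gave 8 lower for transcription and 3′ end formation, DESeq2 and the absent filter each 0 higher for chaperones, and the absent filter 1 higher for S phase. limma on log2(FPKM + 0.1) gave 0 higher for decay, 1 lower for variants, 1 lower for testis-specific genes (0 as reported) and 1 higher for S phase. With a library left out, calls ranged from 0 to 4 higher and 0 to 12 lower for transcription and 3′ end formation, 0 to 6 higher and 0 to 4 lower for decay, 0 to 2 lower for variants, 0 to 7 higher and 1 to 8 lower for chaperones, and 1 to 6 higher and 1 to 12 lower for S phase. The number of all genes called also differed between fits. Lower and higher calls were 710 and 563 of 13082 genes with the block. Under the length and GC correction they were 1980 and 1810 of 13075, and 1779 and 1529 with the block added. DESeq2 size factors called 1485 and 1169 of 13082, the absent filter 1252 and 988 of 17667. limma on log2(FPKM + 0.1) called 1074 and 875 of 17655. With a library left out, 2.63% to 18.9% of all genes were called lower. The cause of the shifts between fits was not tested. H3c14, H4c14 and H2bc1 are limited by low counts.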

Other observations

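The table holds 8 further histone cluster genes under older symbols, which the naming rule leaves out. Hist1h4n, an H4 gene, was more abundant than any of the 55, with 946 ± 59.2 FPKM in si-METTL3 libraries and 1080 ± 102 FPKM in si-NC libraries (SD, n = 3 each); its groups did not overlap in CPM, and it was not called (edgeR log2 fold change -0.21, SE 0.09, adjusted p = 0.147). Hist1h2br had 1479, 496 and 0 counts in si-METTL3 libraries, against 0, 2369 and 2467 counts in si-NC libraries. Hist1h2bq had 1760, 1624 and 2265 counts in si-METTL3 libraries, against 2962, 112 and 1144 counts in si-NC libraries. The sum of Hist1h2bq and Hist1h2br was far steadier, at 95.9 ± 4.89 CPM in si-METTL3 libraries and 88.4 ± 8.73 CPM in si-NC libraries. How reads were divided between these genes was not tested.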
